A study of Mus musculus with 11 samples.

Results

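The first and second row Deiters' cells of the postnatal day 1 (P1) mouse cochlea were taken as the cells of the P1 libraries that carried a supporting cell signature of the outer hair cell region and lacked the genes of their neighbours. A member had *Prss23* of at least 2.0, *Emid1* above 0 and either *Fgfr3* or *Prox1* above 0, on the deposited scale, which is the natural log of 1 plus 10000 times a gene's share of a cell's unique molecular identifiers (UMIs). It also had no UMI of *Fgf3*, *Matn4* or *Pmch*, with *Npy* under 2.0, *Myo6* under 1.5, *Ccer2* under 2.0 and *Oc90* under 3.5. These limits left 227 of the 14043 P1 cells, out of 30634 cells in the series. The *Prss23* limit alone kept 1744 cells, *Emid1* brought these to 961, and the demand for *Fgfr3* or *Prox1* brought them to 404. The zero for *Fgf3* then took out 110 cells, *Npy* 14, *Matn4* 18, *Pmch* 25 and *Myo6* 10, while the *Ccer2* and *Oc90* limits took out 0 more. Members numbered 72, 22, 39 and 94 in replicates 1 to 4, or 1.92%, 1.01%, 1.55% and 1.68% of the cells of each library (mean 1.54% ± 0.386, SD, n = 4 libraries). The exact 95% interval, which covers counting error only, ran from 0.634% to 1.52% in replicate 2 and from 1.51% to 2.41% in replicate 1.

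Deiters' cells are supporting cells of the organ of Corti. Each one holds the base of an outer hair cell and sends a stalk of microtubules and actin up to the surface, where its end plate seals the gap between hair cells. They are kept from becoming hair cells by lateral inhibition: hair cells present Notch ligands, Notch in the supporting cell is cut, and its intracellular part with the factor RBPJ switches on repressors of the Hes and Hey families. Fibroblast growth factor signalling through the receptor FGFR3 is known to act in pillar and Deiters' cells, and Prox1 is a transcription factor of the same cells.

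The study captured cells from the floor of the cochlear duct of wild type CD1 mice in 10x Chromium droplets at E14, E16, P1 and P7. The cells compared here came from wild type CD1 pups at P1, with no treatment, in 4 libraries. Each library was a separate collection in which the cochleae of several pups of a litter were pooled, so that a library, not a pup or a cell, was the replicate. Libraries held 2179 to 5598 cells and 11829392 to 23523802 UMIs, with medians of 3831.5 to 5647.5 UMIs per cell. Members were somewhat deeper than the other non-hair cells, at medians of 6605, 5383, 5793 and 4085 UMIs against 5530, 5151, 5548.5 and 3763. Of 84 barcodes that occurred in more than 1 P1 library, 6 belonged to members and 0 were shared by 2 members.

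Members were compared with the 12319 other non-hair cells, which were cells with *Myo6* under 1.5 and *Ccer2* under 2.0, and with 3 classes of neighbouring supporting cells cut by the same kind of limits. *Fgf3*-positive cells met every member limit but had an *Fgf3* UMI, the pattern of the Deiters' cells of the third row (55 cells). *Npy*-high cells had *Npy* of at least 3.0 with *Emid1*, either *Fgfr3* or *Prox1* and no *Matn4* or *Pmch*, the pattern of inner pillar cells (135 cells). *Matn4*-positive cells had *Matn4* and *Prss23* of at least 2.0 with *Npy* under 2.0 and no *Pmch*, the pattern of inner phalangeal cells (269 cells). Levels are given as counts per 1000000 UMIs (CPM), as the mean over a class's cells in 1 library, and in the order of replicates 1 to 4. Differences are members minus the other class on the log2(CPM + 10) scale with the standard error (SE), and a gene was called when limma's p-value was under 0.05 after Benjamini-Hochberg adjustment across every gene in the fit and the difference at least 2-fold. Because 10 CPM was added, a difference understates the change of genes at low levels. Overlap of library levels between groups is stated for single genes only, and the share of all genes without overlap was not counted.

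The genes of the rule were high or absent by construction and are given without a test. *Prss23*, a serine protease, stood at 1674, 1305, 1366 and 1579 CPM in members and at 337, 188, 166 and 261 CPM in other non-hair cells. *Emid1*, an extracellular matrix protein, stood at 648, 896, 709 and 871 against 90.3, 94.5, 86.2 and 97.0 CPM. Members held 293, 354, 422 and 409.8 CPM of *Fgfr3* against 23.6, 18.5, 24.0 and 26.9 CPM, and 168, 90.8, 181 and 214 CPM of *Prox1* against 11.4, 6.68, 7.85 and 12.8 CPM. The *Prss23* threshold did not fall in a gap, since 40 cells that met every other limit lay just outside it, between 1.75 and 2.0, and 47 lay just inside, between 2.0 and 2.25. *Hes5* averaged 1624 CPM just outside and 1875 CPM just inside, *Lfng* 596 and 744 CPM, *S100a1* 4021 and 4309 CPM and *Fzd9* 753 and 787 CPM. A cell without an *Fgf3* UMI can still have transcribed *Fgf3*, so that some members may belong with the *Fgf3*-positive cells, and no limit of the rule separated outer pillar cells.

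Several defining markers of other cell types were at or near 0 in members, while the summed hair cell list was higher than in the other non-hair cells. Counts of markers called are given beside the shares over all genes tested, 5.39% higher and 5.72% lower. Of the 13 hair cell markers, summed levels were 662 to 915 CPM in members and 215 to 384 CPM in other non-hair cells. The genes behind this were *Pcp4*, a calmodulin-binding protein that stood at 473, 504, 563 and 348 CPM in members, *Acbd7* and *Cd164l2*, and these 3 of the 6 tested were called higher. The part of hair cell RNA in the other differences was not tested. The defining hair cell genes stayed low, with *Pou4f3* at 8.999, 0, 0 and 4.07 CPM, *Myo7a* at 2.46, 0, 4.12 and 3.46 CPM and *Pvalb*, a calcium buffer of hair cells, at 6.02, 0, 4.34 and 5.68 CPM. After each cell was thinned to 1500 UMIs, 0.441% of members had a *Pvalb* UMI, against 61.1% of hair cells (2.64% and 69.0% unthinned). Mesenchyme markers summed to 86.8 to 272 CPM in members and 1769 to 3217 CPM in the others, with *Col1a2* at 0 in all 4 member profiles. Of these 8 markers only *Dcn* and *Lum* were tested, and both are also in the list of Kölliker's organ and interdental markers given below. *Lum* alone stood at 963 to 2377 CPM in the others, so this sum is not a measure of mesenchyme alone. Neuron markers summed to 4.25 to 44.9 CPM in members against 97.5 to 320 CPM, glia markers to 53.1 to 102 CPM against 108 to 129 CPM, and blood and immune markers to 0 to 3.66 CPM against 0.989 to 71.1 CPM. In the list of Hensen's and Claudius cell markers, 4 of 8 tested genes were called higher (*Nupr1*, *Egfl6*, *Itih5* and *Syt6*) and 3 lower (*Fst*, *Gata2* and *Fabp7*). *Fabp7* is not a marker of lateral neighbours, since the paper places it in Kölliker's organ beside the organ of Corti. After thinning, 73.2% of *Matn4*-positive cells and 5.67% of other non-hair cells had an *Fabp7* UMI. The list summed to 920 to 1446 CPM in members against 564 to 1238 CPM. Of the inner pillar cell markers 5 of 8 were higher (1525 to 2837 CPM against 1008 to 1886 CPM), and of the study's genes for the third row 7 of 11 (5124 to 6733 CPM against 2541 to 5334 CPM), with 0 lower in either list. In replicate 1 the inner pillar sum was lower in members, at 1691 against 1886 CPM. The part of these lists in the other differences was not tested. The supporting cell factor *Sox2*, which the rule did not use, stood at 306, 495, 330.5 and 329.7 CPM in members against 77.8, 77.9, 85.3 and 117 CPM (1.91 ± 0.16, adjusted p = 5.6e-08), and the groups did not overlap.

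Against all other non-hair cells, 460 of 8532 genes tested were called higher in members (5.39%) and 488 lower (5.72%). At an adjusted p under 0.05 without the 2-fold limit these numbers were 958 and 912, and the median difference over all genes tested was 0.02. The genes with the largest increases took in enzymes, secreted proteins and receptors. They were *Pdzk1ip1*, *Car14*, *Rab3b*, *Serpine2*, *Mansc4*, *Lfng*, *Rflnb*, *Cox4i2*, *Fzd9*, *Bace2*, *Smagp* and *Egfl6*, with differences from 3.20 to 4.08. Each of these 12 was higher in members in all 4 libraries. Scale bore on the calls of genes at low levels: with 50 in place of 10 CPM added, *Jag1* (0.90), *Hey2* (0.57), *Notch3* (0.52), *Etv4* (0.62), *Fgfrl1* (0.81), *Bmp2* (0.98), *Cdkn1b* (0.96), *Acer3* (0.82), *Ccnd1* (-0.60), *Otoa* (-0.85) and *Fst* (-0.77) fell under the 2-fold limit. All 11 also did so with means of the deposited log values, as did *Bace2* (0.87), *C2cd4b* (0.87), *Dgat2* (0.64), *Frzb* (0.86), *Igfbpl1* (0.29), *Nupr1* (0.91), *Fabp7* (-0.25), *Gjb6* (-0.60), *Lgals1* (-0.84), *Hes1* (-0.92), *S100b* (0.98), *Wnt7a* (0.56), *Tubb5* (-0.92) and *Sox21* (0.79). Only the named genes and some list genes were checked singly. Others called below, such as *Nrarp*, *Inhba* and *Rora*, were not. Over all genes, 165 of the 460 and 181 of the 488 kept their call with 50 CPM added. With mean log values 76 and 50 did.

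*Pdzk1ip1*, a small membrane protein, had the largest difference (4.08 ± 0.32, adjusted p = 1.3e-08) and also the widest spread of these 12, with 2365, 531, 793 and 67.1 CPM in members and 42.9, 26.3, 22.3 and 5.63 CPM in other non-hair cells. The gene lies on chr4:115088708-115093899 (build mm10). The lowest of the member levels, in replicate 4, still lay above every level of the others. *Car14*, a carbonic anhydrase that faces the outside of the cell, stood at 619, 403, 292 and 313 CPM against 23.0, 13.5, 9.50 and 14.9 CPM (4.01 ± 0.17, adjusted p = 6.4e-12). *Serpine2*, a secreted inhibitor of serine proteases on chr1:79794197-79861180, stood at 1556, 1064, 719.8 and 1240.2 CPM against 107, 47.9, 47.5 and 83.4 CPM (3.84 ± 0.13, adjusted p = 5.0e-13), so that the lowest member library lay several times above the highest of the others. *Fzd9*, a Wnt receptor, stood at 894, 749, 596 and 872 CPM against 75.6, 50.5, 63.1 and 90.7 CPM (3.31 ± 0.14, adjusted p = 5.7e-12), with little spread between libraries. *Rab3b*, a small GTPase of secretory vesicles, was high in replicates 1 to 3 and low in replicate 4, at 538, 719, 628 and 76.5 CPM against 21.9, 23.5, 22.2 and 5.13 CPM. *Cox4i2*, an alternative subunit of cytochrome oxidase, stood at 709.9, 695, 843 and 296 CPM against 48.3, 47.0, 49.5 and 37.5 CPM. *Egfl6*, a secreted protein with EGF-like repeats, stood at 287, 245, 217 and 302 CPM against 30.3, 14.1, 14.6 and 21.7 CPM, with the 2 groups well apart.

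The genes with the largest decreases were led by products of Kölliker's organ, the tall columnar epithelium medial to the hair cells that makes up a large part of the duct floor at this age. They were *Epyc*, *Calb1*, *Cnmd*, *Meg3*, *Crabp1*, *Mia*, *Igf1*, *H19*, *Pcolce2*, *Rgcc*, *Gsn* and *Lum*, with differences from -5.69 to -3.94, and each was lower in members in all 4 libraries. *Epyc*, a small leucine-rich proteoglycan, stood at 254, 13.6, 21.8 and 57.9 CPM in members against 3546, 3242, 3136 and 2604 CPM (-5.69 ± 0.33, adjusted p = 2.6e-10). *Calb1*, a calcium buffer, stood at 114, 0, 4.26 and 4.55 CPM against 1147, 800.1, 786 and 369 CPM (-5.02 ± 0.32, adjusted p = 9.8e-10). Replicate 1 had the highest member level for both. *Crabp1*, which binds retinoic acid inside the cell, stood at 71.0, 52.2, 26.6 and 15.2 CPM against 1036, 1379, 1571 and 647 CPM, and *Lum*, another leucine-rich proteoglycan, at 157, 75.1, 49.0 and 98.4 CPM against 1997, 1063, 963 and 2377 CPM. In all, 11 of the 11 tested markers of Kölliker's organ and interdental cells were called lower (median -3.94), beside 5.72% of all genes tested. The list holds *Epyc*, *Calb1*, *Cnmd*, *Crabp1*, *Mia* and *Lum*, named above, and was chosen with earlier results of these data known. It is therefore not independent evidence. Summed levels of the list were 765 to 2714 CPM in members and 14480 to 25365 CPM in the others. The comparison therefore set a small lateral class against a mixture rich in medial cells, and leaving the 3 neighbouring classes out of the mixture gave 483 genes higher and 499 lower.

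**Figure D1:**
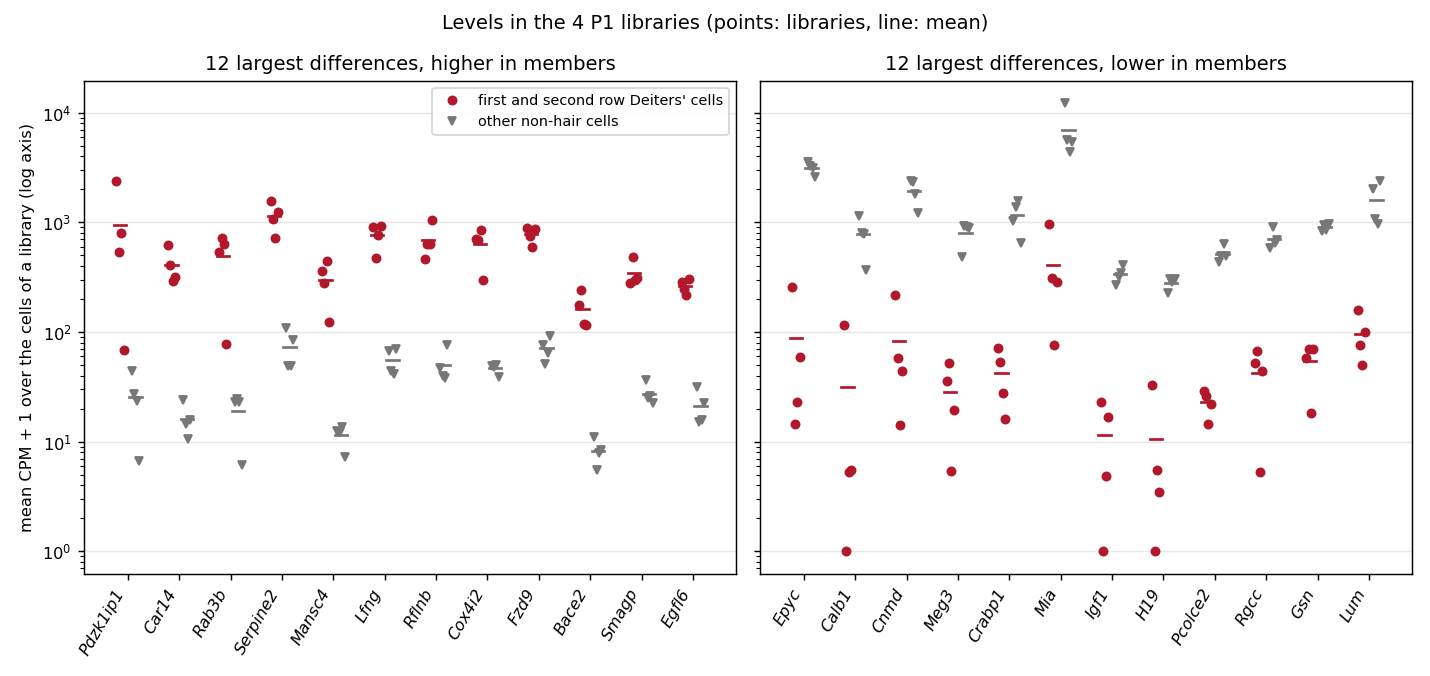
Mean CPM + 1 (log axis) of the 12 genes with the largest increase (left) and the 12 with the largest decrease (right) in first and second row Deiters' cells (red circles) and other non-hair cells (grey triangles). Each point is 1 of the 4 P1 libraries and each line the mean. The red and grey points of a gene do not overlap, and among the increased genes *Pdzk1ip1* has the widest spread in members, from 67.1 to 2365 CPM.

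Of 12 Notch ligands, receptors and Fringe genes, 6 were tested and 3 were called higher: *Lfng*, *Jag1* and *Notch3* (median of the 6, 0.82 against 0.02 over all genes tested). Over all genes tested 5.39% were called higher and 5.72% lower. *Lfng*, the Fringe glycosyltransferase that modifies Notch, stood at 913, 474, 769 and 925 CPM in members and 65.9, 42.9, 40.6 and 68.2 CPM in other non-hair cells (3.58 ± 0.14, adjusted p = 4.3e-12). Every member library exceeded every other profile several times over. *Jag1*, a Notch ligand of supporting cells, stood at 120.0, 177, 170.3 and 289.6 CPM against 55.9, 82.1, 71.3 and 89.9 CPM (1.18 ± 0.16, adjusted p = 2.0e-05). *Notch3* was called at low levels, 24.0, 60.54, 53.9 and 53.4 CPM against 13.3, 25.0, 20.3 and 13.1 CPM (1.02 ± 0.24, adjusted p = 0.0036), with overlapping ranges, and the difference fell under 2-fold without replicate 4 (0.88), with the *Prss23* threshold at 1.5 (0.82) or 2.5 (0.86), and with *Lgr5* at 0 asked of members as well (0.98). *Notch1*, the main receptor of the pathway in this epithelium, had 151, 142, 119 and 179 CPM against 64.1, 83.9, 88.8 and 145 CPM, a difference under 2-fold (0.62 ± 0.17).

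All 7 Hes and Hey family effectors and partners were tested, and 4 were called higher and 1 lower (median 1.02), beside 5.39% higher and 5.72% lower over all genes tested. *Hes5*, a Notch-driven repressor, stood at 1063, 1419, 1540.0 and 2552 CPM in members against 162, 222, 121 and 350.3 CPM (2.92 ± 0.14, adjusted p = 1.7e-11), with the lowest member library at about 3 times the highest of the others. *Hey1*, a related repressor, stood at 792, 905, 725 and 992 CPM against 192, 225, 138 and 374 CPM (1.91 ± 0.13, adjusted p = 3.6e-09), again without overlap. *Hey2*, another member of the family, stood at 25.3, 47.3, 20.4 and 56.7 CPM against 7.52, 5.23, 8.73 and 11.4 CPM (1.32 ± 0.27, adjusted p = 0.0013). *Nrarp*, which encodes a feedback inhibitor of Notch, was called higher (1.02 ± 0.19, adjusted p = 0.00043) although the ranges overlapped, with 329.6, 336, 189.9 and 471 CPM against 75.1, 202, 100.2 and 323 CPM. *Hes1* went the other way, at 238, 595, 334 and 381 CPM in members against 336, 1071, 837 and 1307 CPM (-1.09 ± 0.15, adjusted p = 2.6e-05). The ranges overlapped. Its call was lost without the library in the model (adjusted p = 0.10), without replicate 4 (-0.87) and with hair cells kept among the others (-0.99). *Heyl* (0.96 ± 0.23) and *Hes6* (-0.17 ± 0.21) were not called.

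The letters GTGGGAA, which hold the core that RBPJ is known to bind, were searched on both strands of the 250 bases before the start of each gene in RefSeq (build GRCm38.p6). Of the 19 genes of both Notch lists, 15 had an entry, and 3 held the motif: *Hes5*, *Lfng* and *Hey2*. These were called higher, but so were *Jag1*, *Notch3* and *Nrarp*, which have an entry without the motif, and the called *Hey1* and *Hes1* had no entry. The motif was found in 5.42% of 32851 promoters in the table. The 3 sequences are shown because they hold the motif, with the motif or its reverse complement in capitals, written in the direction of the gene. A match is a description of the letters and not of binding. *Hes5* holds it at 226 and 83 bases before the start, *Lfng* at 109 and *Hey2* at 207.
Hes5, chr4:154960673-154960922, plus strand: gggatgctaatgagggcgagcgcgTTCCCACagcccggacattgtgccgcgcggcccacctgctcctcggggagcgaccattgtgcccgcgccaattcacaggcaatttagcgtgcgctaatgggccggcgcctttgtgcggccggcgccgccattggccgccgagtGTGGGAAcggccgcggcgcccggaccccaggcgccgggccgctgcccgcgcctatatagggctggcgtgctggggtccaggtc
Lfng, chr5:140607091-140607340, plus strand: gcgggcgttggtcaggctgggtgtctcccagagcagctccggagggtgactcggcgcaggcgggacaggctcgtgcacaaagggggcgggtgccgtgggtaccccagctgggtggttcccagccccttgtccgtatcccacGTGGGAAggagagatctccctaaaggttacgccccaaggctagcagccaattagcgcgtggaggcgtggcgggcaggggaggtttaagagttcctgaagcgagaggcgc
Hey2, chr10:30842784-30843033, minus strand: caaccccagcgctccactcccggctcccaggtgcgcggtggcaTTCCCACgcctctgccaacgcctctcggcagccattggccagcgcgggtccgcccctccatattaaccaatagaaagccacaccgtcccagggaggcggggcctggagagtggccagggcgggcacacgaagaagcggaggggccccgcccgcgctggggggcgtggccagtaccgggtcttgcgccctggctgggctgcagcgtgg

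**Figure D2:**
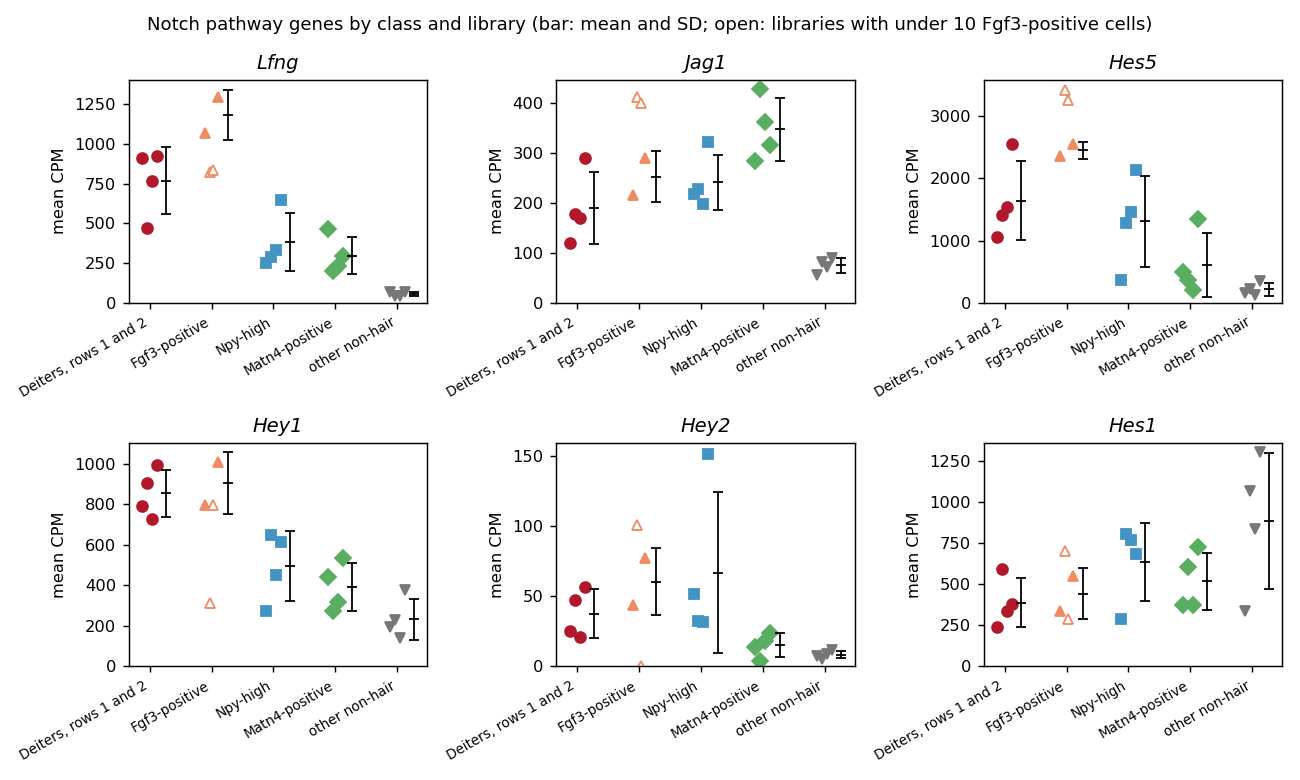
Mean CPM of 6 Notch pathway genes in first and second row Deiters' cells, the 3 neighbouring classes and other non-hair cells. Points are P1 libraries, bars the mean and SD, and open triangles are libraries with fewer than 10 *Fgf3*-positive cells, which are left out of the bar. *Lfng*, *Hes5* and *Hey1* lie far above the other non-hair cells in members, while *Hes1* has its highest mean in the other non-hair cells.

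Of 20 supporting cell transcription factors tested, 8 were called higher (*Sox2*, *Sox13*, *Sox21*, *Gata3*, *Zbtb20*, *Tcf7l1*, *Rora* and *Etv4*) and 3 lower (*Gata2*, *Lmo4* and *Tbx2*), with a median of 0.27, beside 5.39% higher and 5.72% lower over all genes tested. *Rora*, an orphan nuclear receptor, stood at 249, 188, 228 and 403 CPM against 22.9, 19.8, 24.8 and 38.7 CPM (2.89 ± 0.17, adjusted p = 3.1e-10). *Gata3*, a zinc finger factor needed for inner ear development, stood at 537, 677, 722 and 583 CPM against 190.4, 200.04, 252 and 262 CPM (1.44 ± 0.12), and *Zbtb20*, a zinc finger repressor, at 700.0, 997, 829 and 1638 CPM against 315, 239, 266 and 329 CPM (1.76 ± 0.15). None of these 3 overlapped between the groups, and the share of all genes without overlap was not counted. Among cell cycle genes, 2 of 6 tested were higher and 2 lower. *Cdkn1b*, the inhibitor that holds supporting cells out of the cycle, stood at 91.0, 86.2, 105 and 151 CPM against 30.8, 28.8, 27.2 and 34.7 CPM (1.53 ± 0.19, adjusted p = 7.8e-06), and *Cdkn1a* was also higher (1.38 ± 0.20). *Ccnd1*, a D cyclin, was lower at 4.19, 0, 0 and 18.7 CPM against 36.5, 35.4, 28.4 and 33.9 CPM (-1.61 ± 0.29), as was *Cdkn1c* (-1.12 ± 0.15). Of 12 proliferation genes, 3 passed the filter on low values, and 0 of these were called higher or lower (median 0.16). The 12 summed to 89.3 to 109 CPM in members against 75.4 to 78.8 CPM in the others, and the sums were not tested.

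Growth factor pathways are given beside the shares over all genes tested, 5.39% higher and 5.72% lower. Of 7 FGF feedback and target genes tested, *Etv1* and *Etv4* were called higher and *Spry1* lower, and of the FGF receptors and ligands outside the rule *Fgfrl1*, a receptor without a kinase, was called higher at 102, 118, 113 and 144 CPM against 42.1, 46.1, 54.2 and 43.0 CPM (1.19 ± 0.18, adjusted p = 6.0e-05). *Fgfrl1*, *Etv4* and *Bmp2* fell under 2-fold with 50 CPM added and with mean log values, as given above. For *Etv4* (1.37 ± 0.30) the call was also lost with the *Prss23* threshold at 2.5 (0.37, adjusted p = 0.63) and without the filter on low values (adjusted p = 0.077). IGF binding proteins included 4 genes called higher of 8 tested and 2 lower, the ligands *Igf1* and *Igf2*. The call of *Igfbpl1*, among the 4, was lost without the filter on low values (adjusted p = 0.057) and with *Lgr5* at 0 asked of members (0.76, adjusted p = 0.40). *Igfbp3* stood at 1683, 1885, 2032 and 981 CPM against 292, 349, 317 and 229.7 CPM (2.39 ± 0.11, adjusted p = 1.4e-11) and *Igfbp5* at 1330.0, 1703, 1815 and 832 CPM against 303, 374, 375 and 225 CPM (2.08 ± 0.11), with no overlap for either. Of 19 Wnt receptor and feedback genes, 5 were higher and 3 lower. Beside *Fzd9*, the ligand gene *Wnt7a* (1.83 ± 0.20), the receptor *Fzd4* (2.07 ± 0.19) and the inhibitor receptor *Kremen1* (2.01 ± 0.21) were higher, and *Wnt5a* was lower at 2.76, 17.2, 0 and 3.68 CPM against 66.7, 57.1, 52.4 and 81.4 CPM (-2.32 ± 0.27). Of 15 TGF-beta and BMP genes, 4 were higher and 1 lower. *Inhba*, an activin subunit, stood at 120.0, 263, 176 and 206 CPM against 12.1, 14.7, 15.3 and 21.3 CPM (2.92 ± 0.20), *Bmp2* was higher (2.22 ± 0.28), and the activin antagonist *Fst* was lower (-1.60 ± 0.36), a call lost without the filter on low values, without the library in the model and among cells of 3000 to 8000 UMIs (adjusted p = 0.13, 0.054 and 0.082). *Ntf3*, the neurotrophin NT-3, was higher at 436, 266, 263 and 399 CPM against 119, 74.7, 93.5 and 127 CPM (1.62 ± 0.14, adjusted p = 5.2e-08).

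Structural and ion handling genes are given beside the same shares over all genes tested, 5.39% higher and 5.72% lower. The list of S100 proteins, calmodulins and calbindins gave 4 genes called higher and 3 lower of 11. *S100a1*, a calcium-binding protein on chr3:90511034-90514392, stood at 7141, 6420.0, 6149 and 2615 CPM in members and 998, 625, 541 and 333 CPM in other non-hair cells (3.15 ± 0.10, adjusted p = 5.0e-13). The lowest member library lay more than 2 times above the highest of the other profiles. *S100b*, *S100a6* and *S100a13* were also higher (2.48 ± 0.22, 1.46 ± 0.17 and 2.14 ± 0.17), and *S100a10*, *S100a11* and *Calb1* were lower. Of 21 adhesion and guidance genes, 8 were called higher and 4 lower. *Nrcam*, a cell adhesion molecule, stood at 305, 317, 388 and 530.0 CPM against 32.8, 31.4, 30.1 and 45.2 CPM (3.12 ± 0.16, adjusted p = 4.6e-11), and *Cdh1*, E-cadherin, was higher (2.29 ± 0.16), while *Cdh2*, N-cadherin, was among those lower. Tubulins and their partners gave 1 gene higher, *Cep41*, a centrosomal and ciliary protein (3.11 ± 0.21), and 3 lower of 15 tested. The share higher was near that over all genes. *Tuba1a* missed the 2-fold limit at 3701, 1545, 2154 and 737 CPM against 1392, 774, 1135 and 465 CPM (0.99 ± 0.11). Of 16 actin, keratin and plastin genes, *Krt8* was called higher (1.17 ± 0.18), a call lost without replicate 1, without replicate 3, without the filter and without the library in the model, and *Krt19*, *Lcp1*, *Pls3* and *Vim* were lower. For this list too the share higher was near that over all genes. Among ion transport genes, 3 of 12 were higher, *Car14* and *Aqp11*, an aquaporin, among them, and 3 lower.

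Of 11 tectorial membrane genes tested, 0 were called higher and 7 lower (median -1.61). *Tecta*, alpha-tectorin, stood at 309.8, 390.2, 301 and 331 CPM against 985, 1366, 1361 and 1043 CPM (-1.80 ± 0.11, adjusted p = 7.1e-10), and *Col9a1* at 704, 429.8, 212 and 556 CPM against 2986, 2123, 1999 and 2821 CPM (-2.46 ± 0.13), while *Tectb*, beta-tectorin, did not reach 2-fold (0.79 ± 0.12). Of 3 connexin genes tested, *Gjb2* and *Gjb6*, the gap junction proteins connexin 26 and 30, were lower, with *Gjb2* at 272, 158, 94.9 and 296 CPM against 759, 770.3, 847 and 883 CPM (-2.06 ± 0.19). Glycolysis genes gave 3 called higher of 15 and 0 lower (median 0.11): *Eno1* (1.89 ± 0.11), *Ldhb* (1.32 ± 0.10) and *Aldoc* (1.22 ± 0.13). Beside the 5.39% higher and 5.72% lower over all genes tested, claudins and tight junction genes gave 1 higher and 1 lower of 11, a share near that background, retinoic acid and steroid genes 2 higher and 3 lower of 7, and supporting cell deafness genes 1 higher and 5 lower of 18. Stress genes known to rise on dissociation moved with the comparison, with 5 of 13 lower and 0 higher in members (median -0.82) and summed levels of 2500 to 4865 CPM in members against 4854 to 6591 CPM. In replicate 1 the sum was not lower in members, at 4865 against 4854 CPM. The part of stress genes in the other differences was not tested. The 25 genes that the study drew from these same libraries for first and second row Deiters' cells were all tested and all called higher (median 3.12), which is not independent evidence because they were chosen on these cells.

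**Figure D3:**
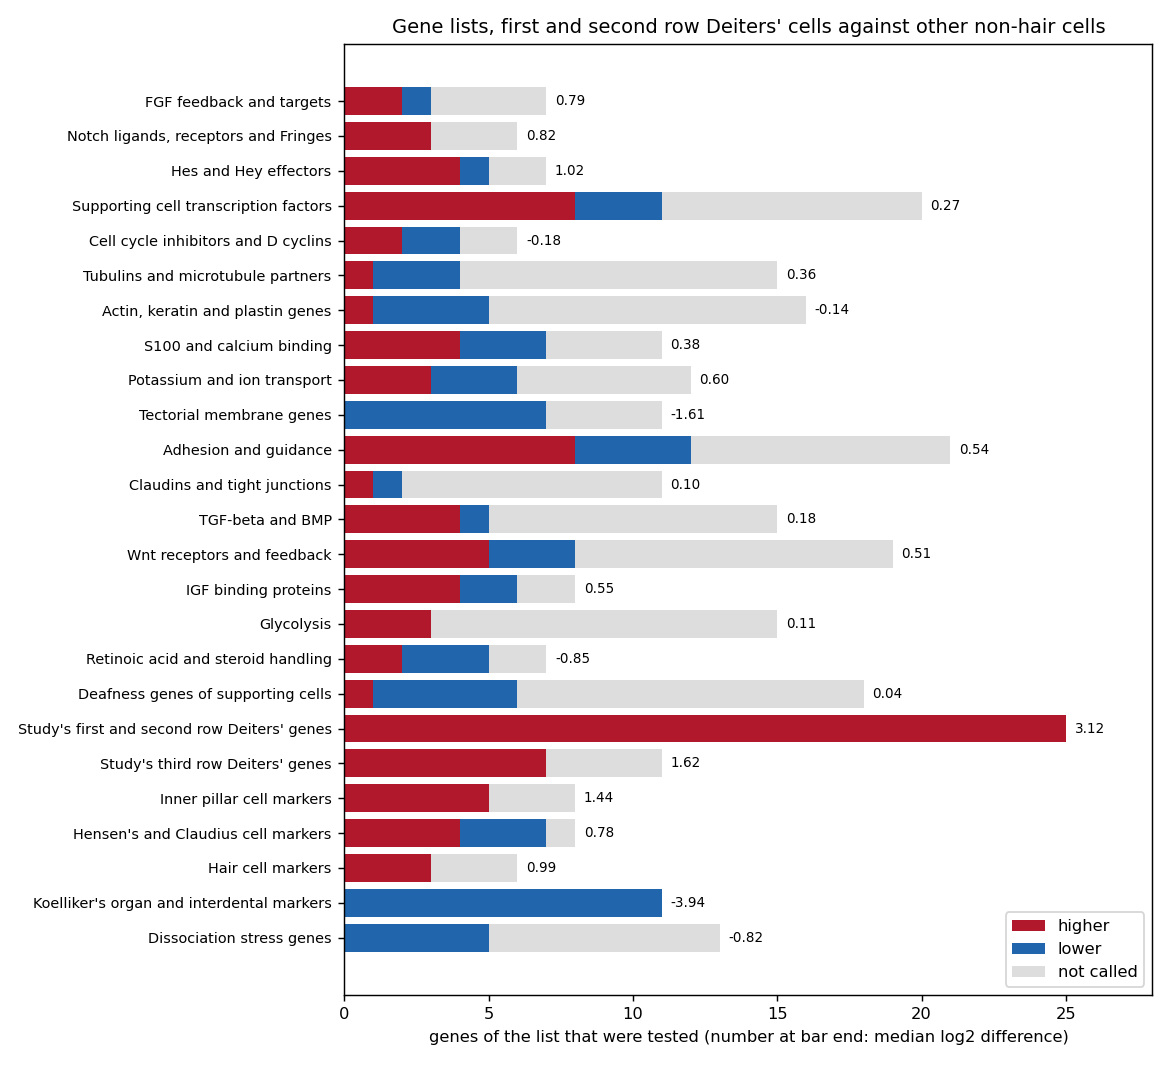
Number of tested genes of each list called higher (red), lower (blue) or not called (grey) in first and second row Deiters' cells against other non-hair cells, for lists with at least 5 tested genes. The number at the end of each bar is the list's median log2 difference, which runs from -3.94 for Kölliker's organ and interdental markers to 3.12 for the study's own first and second row Deiters' genes.

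The *Fgf3*-positive cells differ from members by definition in *Fgf3* alone among the genes of the rule. Only replicates 1 and 4 held at least 10 of them (20 and 25 cells), so the fit rested on 2 libraries with 1 residual degree of freedom and took its variance wholly from the other genes. The SEs and p-values of this fit therefore leave out a gene's own spread between the 2 libraries. In this fit, 35 of 8458 genes were called higher in members (0.414%) and 17 lower (0.201%). Without the library as a block, 0 were called in either direction by limma, against 93 higher and 45 lower at an unadjusted p under 0.05. With 3 libraries of at least 5 cells, 34 were higher and 11 lower. CPM levels and fitted differences below are for replicates 1 and 4, whereas shares of cells, UMI totals and their ratios are over all 4 libraries.

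Genes lower in members than in *Fgf3*-positive cells were led by *Igfbpl1*, a secreted IGF binding protein-like gene, at 46.8 and 105 CPM in members and 1243 and 461 CPM in *Fgf3*-positive cells (-3.25 ± 0.25, adjusted p = 6.6e-34). *Lgr5*, the R-spondin receptor, stood at 27.7 and 37.1 CPM against 185 and 252 CPM (-2.42 ± 0.37, adjusted p = 4.0e-08), and in thinned cells 5.73% of members (exact 95% interval 3.08% to 9.59%) had an *Lgr5* UMI against 23.6% of *Fgf3*-positive cells (13.2% to 37.0%) and 2.47% of hair cells (16.7%, 63.6% and 8.82% unthinned). *Cfc1*, a co-receptor of Nodal ligands, stood at 4.39 and 8.58 CPM against 206 and 42.3 CPM, *Umodl1* at 4.27 and 33.6 CPM against 106 and 156 CPM, and *Gripap1*, which regulates endosomal traffic, at 18.2 and 18.3 CPM against 101 and 87.2 CPM. In replicates 2 and 3, which were not in the fit, *Gripap1* was higher in members, at 8.53 and 13.4 CPM in members against 0 and 11.7 CPM in 2 and 8 cells. *Tectb*, *Cryab*, a small heat shock protein, and *Stmn1*, which destabilizes microtubules, were also lower in members (-1.33 ± 0.09, -1.69 ± 0.13 and -1.87 ± 0.19). Of the study's 12 genes for the third row, which were drawn from these libraries, 6 were lower in members and 0 higher, beside 0.201% lower and 0.414% higher over all genes tested.

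In the other direction, *C2cd4b* stood at 246 and 84.8 CPM in members and 11.2 and 13.6 CPM in *Fgf3*-positive cells (2.80 ± 0.46, adjusted p = 4.7e-07), although the 2 *Fgf3*-positive cells of replicate 2, which were not in the fit, averaged 444 CPM. *Cebpb*, a transcription factor, was at 112 and 54.5 CPM against 14.2 and 5.62 CPM (2.19 ± 0.53, adjusted p = 0.0063). *Map4*, a microtubule-associated protein, was at 51.4 and 113 CPM against 12.2 and 7.41 CPM, a ratio of summed UMIs of 8.38 with a counting interval of 2.78 to 41.4 because *Fgf3*-positive cells held 3 UMIs. For *Dgat2*, which makes triglycerides, with 151 UMIs in members and 3 in *Fgf3*-positive cells, the ratio was 13.6 (4.57 to 66.7), and for *Frzb*, a secreted Wnt antagonist, with 200 and 3 UMIs, it was 18.03 (6.08 to 88.2). The 8 *Fgf3*-positive cells of replicate 3, which were not in the fit, averaged 26.8 CPM of *Frzb*. Among Notch genes, no difference of *Lfng* (-0.35 ± 0.14), *Hes5* (-0.57 ± 0.11, adjusted p = 9.8e-05) or *Hey1* (-0.02 ± 0.15) reached 2-fold, with *Hes5* at 1063 and 2552 CPM in members against 2359 and 2551 CPM. *S100a1* gave 0.03 ± 0.08 and *Fzd9* 0.12 ± 0.16.

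*Npy*-high cells differed from members in more genes, with 203 of 8479 called higher in members (2.39%) and 198 lower (2.34%) over 4 libraries. Without the library as a block the numbers were 106 and 99, and among cells of 3000 to 8000 UMIs in 3 libraries they were 125 and 100. *Npy*-high cells were deeper than members, with medians of 5869.5 to 10465 UMIs. Higher in members were *Pdzk1ip1* (5.10 ± 0.42), *Cox4i2*, *Egfl6*, *Frzb* and *Nupr1*. *Cox4i2* stood at 709.9, 695, 843 and 296 CPM in members against 9.13, 5.53, 17.8 and 12.9 CPM (4.86 ± 0.26, adjusted p = 1.2e-13). *Nupr1*, a small stress-responsive chromatin protein, stood at 239, 343, 211 and 82.3 CPM against 2.52, 0, 4.87 and 15.8 CPM (3.80 ± 0.38, adjusted p = 2.7e-08). Members held 327 UMIs of *Egfl6* and *Npy*-high cells 3, a ratio of 92.9 (31.5 to 453), and 200 against 1 of *Frzb*, a ratio of 170.5 (30.3 to 6769).

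Lower in members than in *Npy*-high cells were *Ngfr*, *Npnt*, *Crym*, *Ccnd1* and *Igfbp4*. *Ngfr*, the p75 neurotrophin receptor of pillar cells, stood at 2.23, 0, 16.5 and 6.37 CPM in members against 327, 513, 371 and 248 CPM (-4.58 ± 0.30, adjusted p = 6.6e-12). *Npnt*, the matrix protein nephronectin, stood at 1.51, 16.5, 4.43 and 23.9 CPM against 257, 241, 292 and 313 CPM (-3.86 ± 0.29), and *Crym*, a thyroid hormone binding protein, at 27.9, 55.0, 19.4 and 17.4 CPM against 804, 509, 479.8 and 266 CPM (-3.70 ± 0.24). None of these overlapped, and the share of all genes without overlap was not counted. The lists that follow stand beside 2.39% higher and 2.34% lower over all genes tested. Microtubule genes were lower in members for 5 of 15 tested and higher for 1 (median -0.80), with *Map4* at 51.4, 70.8, 27.2 and 113 CPM against 305, 325, 346 and 379.9 CPM (-2.33 ± 0.23, adjusted p = 2.5e-08) and *Stmn1* and *Tubb2b* lower as well (-1.89 ± 0.14 and -1.27 ± 0.14). *Etv4*, a target of FGF signalling, stood at 17.3, 75.2, 23.4 and 53.2 CPM against 199, 280.4, 332 and 190.2 CPM (-2.43 ± 0.27, adjusted p = 1.5e-07). Of the 12 inner pillar cell markers, 11 were lower in members and 0 higher, and these too were drawn from this study. Of 13 actin, keratin and plastin genes tested, 3 were higher in members and 0 lower, *Krt8* (1.80 ± 0.18) and *Krt18* among them. *Lfng* was called higher (1.05 ± 0.17, adjusted p = 7.5e-05), and *Hes5* was not (0.51 ± 0.16, adjusted p = 0.05). *Fzd9* was not called either (0.32 ± 0.13, adjusted p = 0.20).

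Against *Matn4*-positive cells, 334 of 8381 genes were called higher in members (3.99%) and 394 lower (4.7%). Without the library as a block the numbers were 207 and 263. Lower in members were *Fabp7*, *Gjb6*, *Lgals1*, *Trh* and *Gjb2*. *Fabp7*, a fatty acid binding protein of glia-like cells, stood at 33.8, 6.15, 0 and 0 CPM in members against 5012, 3033, 2005 and 512 CPM (-6.94 ± 0.24, adjusted p = 1.5e-18), and after thinning 0.441% of members had an *Fabp7* UMI against 73.2% of *Matn4*-positive cells (2.20% and 84.0% unthinned). *Gjb2* stood at 272, 158, 94.9 and 296 CPM against 4058, 4119, 4453 and 4794 CPM (-4.46 ± 0.16, adjusted p = 6.5e-18) and *Gjb6* at 13.3, 6.15, 4.47 and 9.98 CPM against 729, 499, 801 and 1319 CPM (-5.46 ± 0.23), so that both connexins differed by more than the whole spread between libraries. *Lgals1*, galectin 1, was lower by a similar margin (-5.45 ± 0.19). *Trh*, thyrotropin releasing hormone, had 1 UMI in members and 561 in *Matn4*-positive cells, a ratio of 465 in favour of the latter (83.2 to 18416). The glutamate transporter gene *Slc1a3* was lower in members as well, at 57.7, 134, 61.02 and 108 CPM against 254, 302, 204 and 196 CPM (-1.37 ± 0.21).

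Higher in members than in *Matn4*-positive cells were *Smagp*, *Fam159b*, *Mansc4*, *Pdzk1ip1* and *Gstm1*. *Smagp*, a small transmembrane protein, stood at 279.9, 481, 298 and 311 CPM against 1.33, 0, 0 and 7.62 CPM (4.86 ± 0.28, adjusted p = 1.7e-13), and *Gstm1*, a glutathione transferase, at 506, 1019, 1015 and 272 CPM against 30.5, 25.5, 26.5 and 22.6 CPM (4.11 ± 0.24, adjusted p = 2.4e-13). Member levels of both lay far above all 4 profiles of the other class. *Npy*-high cells, however, held more *Smagp* than members in all 4 libraries, at 643, 542, 699 and 532 CPM (-0.83 ± 0.16, adjusted p = 0.0011). That difference was under 2-fold. After thinning, 39.2% of members and 51.9% of *Npy*-high cells had a *Fam159b* UMI (65.2% and 84.4% unthinned). *Hes5* and *Hey1* were called higher (1.68 ± 0.19 and 1.14 ± 0.15), as was *Lfng* (1.37 ± 0.15), whereas *Jag1* was lower in members without reaching 2-fold (-0.89 ± 0.19). *Fgfr1* was higher (2.76 ± 0.30), and *Fgf10* and *Fgf20* were called lower, *Fgf20* in 3 of 4 libraries (0, 16.7, 0 and 8.86 CPM in members against 60.4, 7.86, 43.3 and 44.0 CPM). Stress genes were lower for 6 of 12 tested and higher for 0, beside 4.7% lower and 3.99% higher over all genes tested. Markers of Kölliker's organ and interdental cells were lower for 5 of 11 and higher for 1 (765 to 2714 CPM against 5001 to 10254 CPM). Mesenchyme markers were lower for 2 of 2 tested, *Dcn* and *Lum*, which are both among the 5 just given. Hair cell markers were higher for 3 of 6 and lower for 1 (662 to 915 CPM against 318 to 675 CPM). The part of these lists in the other differences was not tested.

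In all 4 comparisons 13 genes were called higher in members, and 84 were higher and 19 lower against other non-hair, *Npy*-high and *Matn4*-positive cells alike. The 4 comparisons share the member cells, so they are not independent. The 10 with the highest lowest difference were *Dgat2*, *Frzb*, *C2cd4b*, *Tnnt1*, *Mansc4*, *Agr3*, *Dbi*, *Tm4sf1*, *Pdzk1ip1* and *Acer3*. None of the 10 kept its call against *Fgf3*-positive cells without the library as a block, and calls in the other comparisons were lost as follows, beside the losses with 50 CPM or mean log values. *C2cd4b* overlapped between members (246, 514, 392 and 84.8 CPM) and other non-hair cells (131, 50.4, 36.4 and 76.0 CPM), and its call there was lost without the filter on low values (adjusted p = 0.12). Against *Npy*-high cells, *Agr3* and *Acer3* lost their calls without the library in the model (adjusted p = 0.13 and 0.065) and among cells of 3000 to 8000 UMIs (adjusted p = 0.088 and 0.50). *Acer3* also lost its call there without replicate 1 (adjusted p = 0.055) or replicate 4 (adjusted p = 0.052), and against *Matn4*-positive cells without the library in the model (adjusted p = 0.10). *Dbi*, an acyl-CoA binding protein, stood at 4161, 2612, 2182.1 and 1215 CPM in members, 989, 852, 715 and 450.1 CPM in other non-hair cells, 1534 and 506 CPM in *Fgf3*-positive cells of replicates 1 and 4, 1264, 818, 510.1 and 512 CPM in *Npy*-high cells and 1433, 936, 821 and 664 CPM in *Matn4*-positive cells. Members were highest within each library, although their level in replicate 4 lay below that of replicate 1 in the neighbouring classes. *Tm4sf1*, a membrane protein of the tetraspanin-like family, stood at 2604, 1427, 1332 and 694 CPM in members, 411, 423, 289 and 306 CPM in other non-hair cells and 244, 137, 162 and 228 CPM in *Npy*-high cells. *Tnnt1*, a troponin subunit best known from slow muscle, stood at 281, 189, 275 and 136 CPM in members, 20.3, 15.2, 15.3 and 14.96 CPM in other non-hair cells and 9.48, 5.95, 3.99 and 21.1 CPM in *Matn4*-positive cells. *Mansc4* stood at 358, 276, 442 and 123 CPM in members and 24.1, 16.1, 41.4 and 19.3 CPM in *Npy*-high cells. *Agr3*, a protein disulfide isomerase of the secretory pathway, stood at 1069.9, 171, 229 and 246 CPM in members and 80.3, 16.99, 14.9 and 38.9 CPM in other non-hair cells. *Frzb* stood at 164, 244, 274 and 62.2 CPM in members and 29.4, 22.0, 21.5 and 20.1 CPM in other non-hair cells (2.39 ± 0.25, adjusted p = 8.3e-07), and *Acer3*, an alkaline ceramidase, at 80.3, 35.7, 52.4 and 99.8 CPM and 15.4, 9.63, 9.49 and 26.3 CPM.

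**Figure D4:**
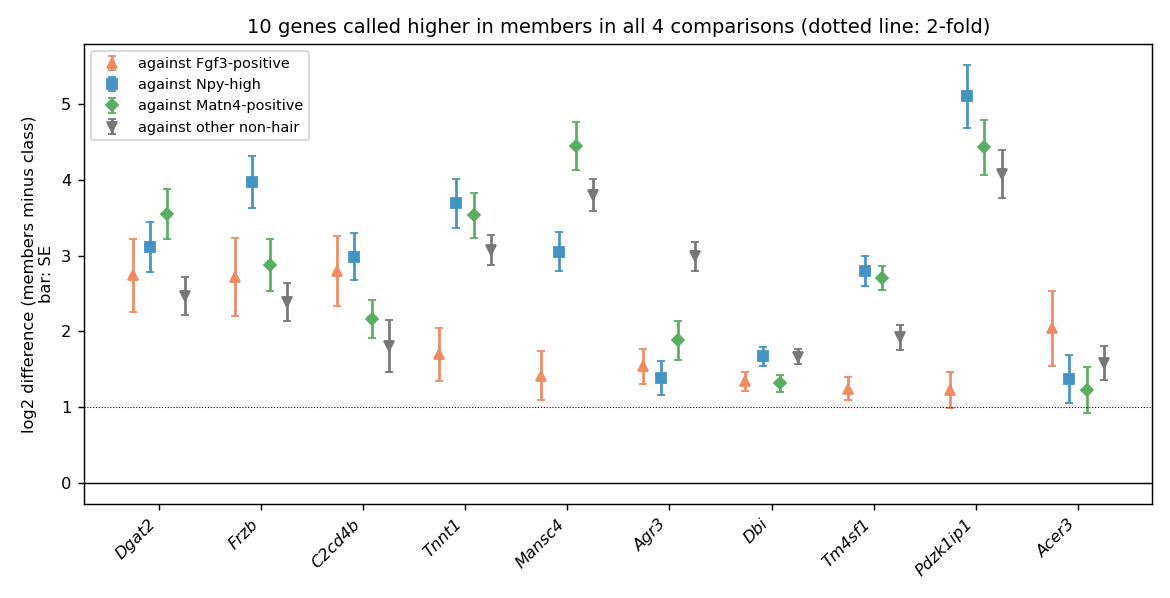
Log2 difference, members minus each class, with the SE, for the 10 genes with the highest lowest difference among those called higher in all 4 comparisons. All points lie above the dotted 2-fold line, and those against *Fgf3*-positive cells rest on 2 libraries. Fitted values of *Dgat2* and *Frzb* against classes with 1 to 3 UMIs depend on the added 10 CPM.

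Member levels of some genes differed between libraries. Replicate 4 held the lowest level of several, with 67.1 CPM of *Pdzk1ip1* against 531 to 2365 CPM in the other 3, 76.5 CPM of *Rab3b* against 538 to 719 CPM, and 2615 CPM of *S100a1* against 6149 to 7141 CPM. It was also the lowest among the other non-hair cells for these 3 genes, at 5.63, 5.13 and 333 CPM. Replicate 4 was the shallowest library, and the part of depth in these levels was not tested. *Hes5* was highest in replicate 4. Without replicate 4, 480 genes were called higher and 522 lower against other non-hair cells, of which 420 and 433 were among those called with all 4 libraries. In cells thinned to 1500 UMIs, *Pdzk1ip1* was found in 70.8%, 31.8%, 41.0% and 9.57% of members, whereas *Serpine2* was found in 76.4%, 81.8%, 61.5% and 73.4%. Over all members, an *Hes5* UMI was found in 68.7% (exact 95% interval 62.3% to 74.7%) against 6.75% of hair cells, an *Lfng* UMI in 67.4% (60.9% to 73.5%) against 5.88%, and an *Fzd9* UMI in 67.8% (61.3% to 73.9%) against 13.5%. Unthinned, these shares were 85.9%, 94.7% and 91.2% of members and 12.8%, 11.5% and 33.5% of hair cells. Among the neighbouring classes, thinned shares of *Hes5*, *Lfng* and *Fzd9* were 81.8%, 76.4% and 67.3% of *Fgf3*-positive cells. They were 60%, 34.8% and 57.0% of *Npy*-high cells and 38.3%, 34.6% and 13.8% of *Matn4*-positive cells. No member and no other non-hair cell was left out by thinning (0 cells under 1500 UMIs).

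**Figure D5:**
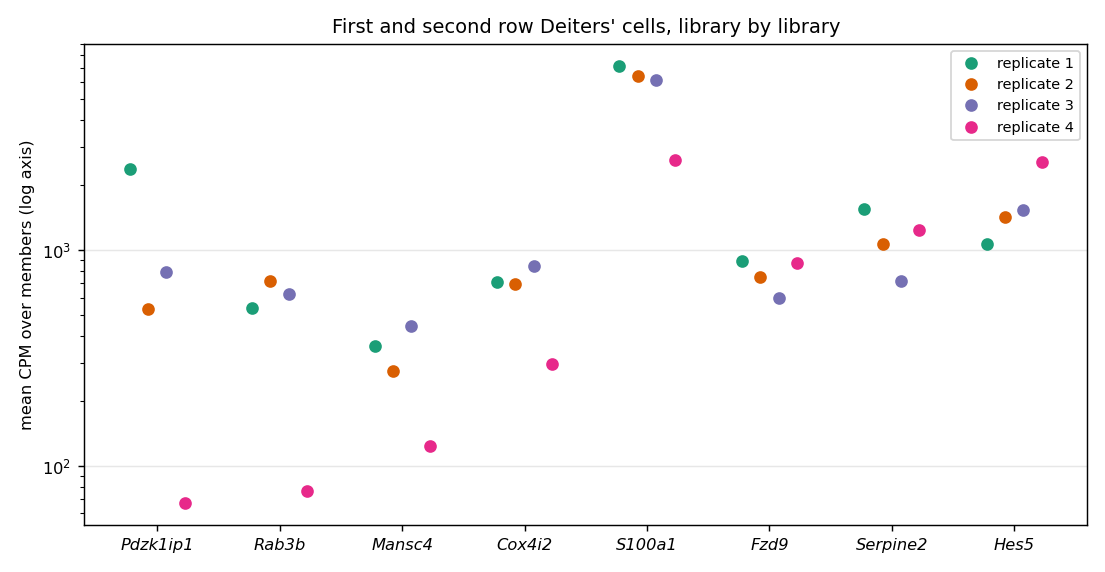
Mean CPM (log axis) over first and second row Deiters' cells in each P1 library for 8 genes that the rule did not use. Replicate 4 is lowest for *Pdzk1ip1*, *Rab3b*, *Mansc4*, *Cox4i2* and *S100a1* and highest for *Hes5*.

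The same limits were applied at the other ages as a description. At E14, 0 of 2198 and 0 of 3055 cells met them, which allows a share of up to 0.136% and 0.0982% when the limit is set at 3 cells. At E16, 3 of 1247, 18 of 2813 and 9 of 3901 cells did so (0.241%, 0.640% and 0.231%), and at P7 5 of 1775 and 7 of 1602 (0.282% and 0.437%). Median depth was 2478 to 2750 UMIs per cell at E16 and 4510 and 4849.5 at P7, against 3831.5 to 5647.5 at P1. The shares were not tested against P1. In the 18 cells of E16 replicate 2, *Hes5* averaged 214 CPM, *Lfng* 679 CPM, *S100a1* 2965 CPM and *Serpine2* 548 CPM, and *Pdzk1ip1* had 0 CPM. In the 5 and 7 cells at P7, *S100a1* averaged 11090 and 10717 CPM, *Car14* 1703 and 783 CPM and *Sox2* 60.95 and 101 CPM, again with *Pdzk1ip1* at 0. With so few cells the levels of single libraries varied widely, as *Hes5* did at P7 (59.6 and 1176 CPM).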

How the data were processed

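The deposited tables, 1 column a cell, held natural log values that the authors made by scaling each cell's UMIs to a total of 10000 and adding 1. The submitters' processing notes name Cell Ranger 2.1.1, Seurat 2.0 and build mm10. Here values were turned back to CPM, averaged over the cells of each class in each library, and log2(CPM + 10) was fitted with limma 3.58.1 (R 4.3.3, Python 3.11.15) with trended variances. The library was a block, because both classes of a comparison came from the same pooled animals. A gene was tested where its mean over the profiles reached 10 CPM, and the 11 genes of the rule were left out of all counts. Named genes were the 12 with the largest differences each way against other non-hair cells and 5 each way against each neighbouring class, among genes called, with at least 50 CPM in the higher class and moved the same way in every library of the fit, without Gm-numbered, Rik, ribosomal and mitochondrial genes, then the 10 called higher in all 4 comparisons (ordered by their smallest difference) and called genes of the 33 lists. The members and lists were chosen with earlier results of these data known. No doublet caller was run: the limits on *Myo6*, *Ccer2*, *Npy* and *Matn4* take out some mixed cells, and leaving out cells of over 3000 genes kept 215 members. Replicates are separate collections, so p-values over 4 libraries rest on the spread between 4 pools of pups, with variance shared across genes. Those against *Fgf3*-positive cells took their variance wholly from the other genes and do not measure a gene's own spread between pools. The scripts were tested on simulated data. Alternatives were other added values (1 and 50 CPM), no filter, no block, 3000 to 8000 UMIs, each replicate left out, summed UMIs, mean log values and other limits of the rule. Counting intervals are exact 95% intervals. Promoters came from RefSeq on GRCm38.p6.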

Additional observations from a re-analysis of the deposited data

Results flagged for a closer look

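In 5 of the 52 named genes looked at, 1 of the 4 P1 libraries lay far from the other 3 among first and second row Deiters' cells, by a gap above Dixon's critical share of the range. Chance gives this in about 1 in 20 genes for normally distributed values, which these levels, some of them near 0, need not be. Replicate 2 stood apart for *Smagp* at 481 CPM. Replicate 1 stood apart for *Calb1* at 114 CPM, for *H19* at 31.5 CPM, for *Agr3* at 1069.9 CPM and for *Trh*, whose level of 0.753 CPM there came from 1 UMI. Outside P1, cells that met the same limits were found above the limit that a count of 0 allows, with 18 in E16 replicate 2, 9 in E16 replicate 3, 5 in P7 replicate 4 and 7 in P7 replicate 5.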

How the results depend on the processing

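Against other non-hair cells, the counts stayed within 1.5 times of 460 higher and 488 lower except with 50 CPM added (165 and 181) and with means of the deposited log values (82 and 51). Without the replicate block they were 394 and 421, all among the genes called with it, and leaving out each replicate gave 431 to 480 and 488 to 562. Against *Fgf3*-positive cells, 50 CPM gave 22 higher, the fit without the block 0 and 0, and libraries of at least 5 cells, chosen after seeing the data, 11 lower. Leaving out a replicate there left 1 library and no residual degree of freedom, so it gave no test. Against *Npy*-high cells the counts were 77 and 64 with 50 CPM, 132 and 113 without the filter, 106 and 99 without the replicate block and 125 and 100 at 3000 to 8000 UMIs, and 141 to 190 and 138 to 168 with each replicate left out. Against *Matn4*-positive cells they were 108 and 133 with 50 CPM, and 207 were higher without the replicate block. Members numbered 146 (1.04% of P1 cells) with the *Prss23* threshold at 2.5. Their share was 2.20% at 1.5 and 1.35% with *Lgr5* at 0 asked as well, which by its construction turned *Lgr5* against other non-hair cells to -1.69. The cause of the other changes was not tested. Of the called genes among the named genes and the list genes checked singly, 48 of 74, 0 of 27, 35 of 43 and 46 of 56 kept their call in every alternative against other non-hair, *Fgf3*-positive, *Npy*-high and *Matn4*-positive cells. Leaving the neighbouring classes out of the others and leaving members with an *Lgr5* UMI out against *Fgf3*-positive cells were also chosen after seeing the data.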
